A study of Mus musculus with 12 samples.

Results

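The 7 beta-1,4-galactosyltransferase genes B4galt1 to B4galt7 and the sialyltransferase gene St6gal1 were followed across splenic B cells of 2 genotypes, with and without interleukin-4 (IL-4). These 8 genes were taken by name from the 34650 gene names on the array and are covered by 15 probes. The set was selected on the measured rise of B4galt4 with IL-4 in wild-type cells, so that rise is given as a description without a test. 7 of the 8 genes were tested, and B4galt6 was not well above background on any array.

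Beta-1,4-galactosyltransferases are Golgi enzymes that move galactose from UDP-galactose onto a growing glycan. B4galt1, B4galt2 and B4galt3 add it to the N-acetylglucosamine ends of N-glycans, and B4galt4 prefers N-acetylglucosamine that carries a sulfate, as in keratan sulfate. B4galt5 and B4galt6 make lactosylceramide, the base of most glycolipids, and B4galt7 builds the linker that ties chondroitin and heparan sulfate chains to their core proteins. St6gal1 caps galactose with an alpha-2,6-linked sialic acid, which is the ligand of the B cell lectin CD22 and also occurs on IgG Fc glycans.

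Gene expression was measured on 12 Agilent 1-colour arrays, 3 in each of 4 groups. The cells were splenic B cells, purified by negative selection from female mice 9 weeks old. The strain was BALB/c, and the genotype was wild type or STAT6 knockout. Cells of all 4 groups were cultured for 4 days with anti-CD40 antibody at 10 µg/ml and lipopolysaccharide (LPS) at 2 µg/ml, so the controls are activated B cells as well. IL-4 was added at 25 ng/ml to the IL-4 groups of both genotypes and left out of the controls. STAT6 is the transcription factor that the IL-4 receptor activates, and the comparisons ask how the enzymes respond to IL-4 and how much of that response is seen without STAT6. The labels speak of triplicates and do not say whether these came from separate mice, so the p-values measure the spread between these samples, which may be technical.

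The arrays held 59305 non-control spots. Between 40.7% and 44.0% of them gave a signal well above background, with none saturated. Arrays of a group correlated at 0.994 to 0.998 across the 16497 genes tested, which are not independent replicates, and the 3 arrays per group limit the precision of all values. Stat6 itself was lower in the knockout, with a difference of -1.94 ± 0.08 (log2, SE) on its brightest probe without IL-4 (limma, Benjamini-Hochberg adjusted p = 1.03e-06) and likewise with IL-4. The 7 B cell markers were well above background in every group, with a summed level of 10.09 to 10.36 on the scaled log2 scale. Slide 1 carried the 6 wild-type arrays with the first and second knockout control, and slide 2 carried knockout IL-4 arrays 1 to 3 with knockout control 3. With slide as a block, the knockout response to IL-4 therefore rests on knockout control 3 alone. With IL-4, all wild-type arrays were on slide 1 and all knockout arrays on slide 2. Without the block, genotype and slide cannot be told apart in that comparison. The block takes the slide effect from the knockout controls, the only group on both slides.

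Promoter sequences are shown for B4galt4, which had the steepest response of the set, and for B4galt1, which followed it most closely over the arrays. They are the 250 bases upstream of the annotated start in RefSeq (mouse build GRCm38.p6), at chr16:38742009-38742258 on the plus strand for B4galt4 and chr4:40853985-40854234 on the minus strand for B4galt1. Each is written 5′ to 3′, with capitals for a match to a STAT-type palindrome.
B4galt4 upstream: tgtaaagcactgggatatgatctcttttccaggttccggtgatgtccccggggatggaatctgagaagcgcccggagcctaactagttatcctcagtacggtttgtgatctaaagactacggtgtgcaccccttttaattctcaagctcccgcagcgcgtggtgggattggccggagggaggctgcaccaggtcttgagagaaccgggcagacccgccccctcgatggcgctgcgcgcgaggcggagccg
B4galt1 upstream: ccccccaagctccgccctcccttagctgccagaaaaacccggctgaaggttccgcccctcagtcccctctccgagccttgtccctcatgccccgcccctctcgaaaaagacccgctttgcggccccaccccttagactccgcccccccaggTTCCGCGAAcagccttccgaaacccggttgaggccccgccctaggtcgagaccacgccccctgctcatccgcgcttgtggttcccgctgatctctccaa
The motifs TTCNNNNGAA, the spacing that STAT6 prefers, and TTCNNNGAA, the spacing of other STAT proteins, were searched. Both read alike on the 2 strands and they can overlap, but not start at the same base. The table held 9 such windows for 7 of the 8 genes. The only match was the TTCNNNGAA motif in B4galt1, written TTCCGCGAA, whose first base lies 99 bases before the start. Of 32851 windows in the whole table, 5.85% held TTCNNNNGAA and 7.02% held TTCNNNGAA. GC content was 59.2% for B4galt4 and 66.4% for B4galt1, against a median of 52.4% over all windows. A match is a string of letters and no evidence of binding, and sequence outside these windows was not searched.

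B4galt4, the enzyme for sulfated N-acetylglucosamine, went from a low signal to a far higher one with IL-4 in wild-type cells, and changed 1.25-fold in the knockout. Its brightest probe was well above background on all 12 arrays. Processed intensities were 106, 131 and 125 in the wild-type controls and 3203, 3456 and 3070 in the wild-type IL-4 arrays. In the knockout they were 103, 111 and 120 without IL-4 and 152, 162 and 141 with it. The wild-type IL-4 arrays stood far above all others, and the other 9 arrays lay within a narrow band.

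On the scaled log2 scale (log2 intensity minus the array's 75th percentile), B4galt4 averaged -1.38 ± 0.11 (SD, n = 3) in wild-type controls and 3.22 ± 0.07 with IL-4, a difference of 4.60 ± 0.08 (SE), or 24.3-fold. With another background correction (normexp) that difference was 3.93, and from the authors' deposited log2 values it was 3.87. Knockout controls averaged -1.45 ± 0.12 and knockout IL-4 arrays -1.12 ± 0.07. The knockout response of B4galt4, which shares no array with the choice of the gene, was 0.33 ± 0.08 or 1.25-fold (limma, adjusted p = 0.00674). Its arrays did not overlap between the groups. With slide as a block the difference was 0.23 and no longer passed (adjusted p = 0.120). With IL-4, the knockout lay 4.35 ± 0.08 below wild type, a 20.3-fold difference that is again given without a test, since the choice used those wild-type arrays. Knockout minus wild type with IL-4 was -3.74 with normexp and -3.75 from the authors' values. Without IL-4 the genotypes differed by -0.07 ± 0.08.

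The probe behind these values maps to chr16:38768778-38768837 (mm9, plus strand, as the files give it). A second B4galt4 probe at chr16:38768336-38768395 was well above background on 10 of the 12 arrays. It gave 4.40 ± 0.21 in wild type, and in the knockout 0.50 ± 0.21, which did not pass (limma, adjusted p over all kept probes = 0.0893). The probes that stand for the other genes lie at chr4:40751739-40751798 (B4galt1), chr4:117545953-117546012 (B4galt2), chr1:173206868-173206927 (B4galt3), chr2:167124056-167124115 (B4galt5), chr13:55711744-55711803 (B4galt7) and chr16:23360037-23360096 (St6gal1). Exons were not assigned to these positions here.

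**Figure D1:**
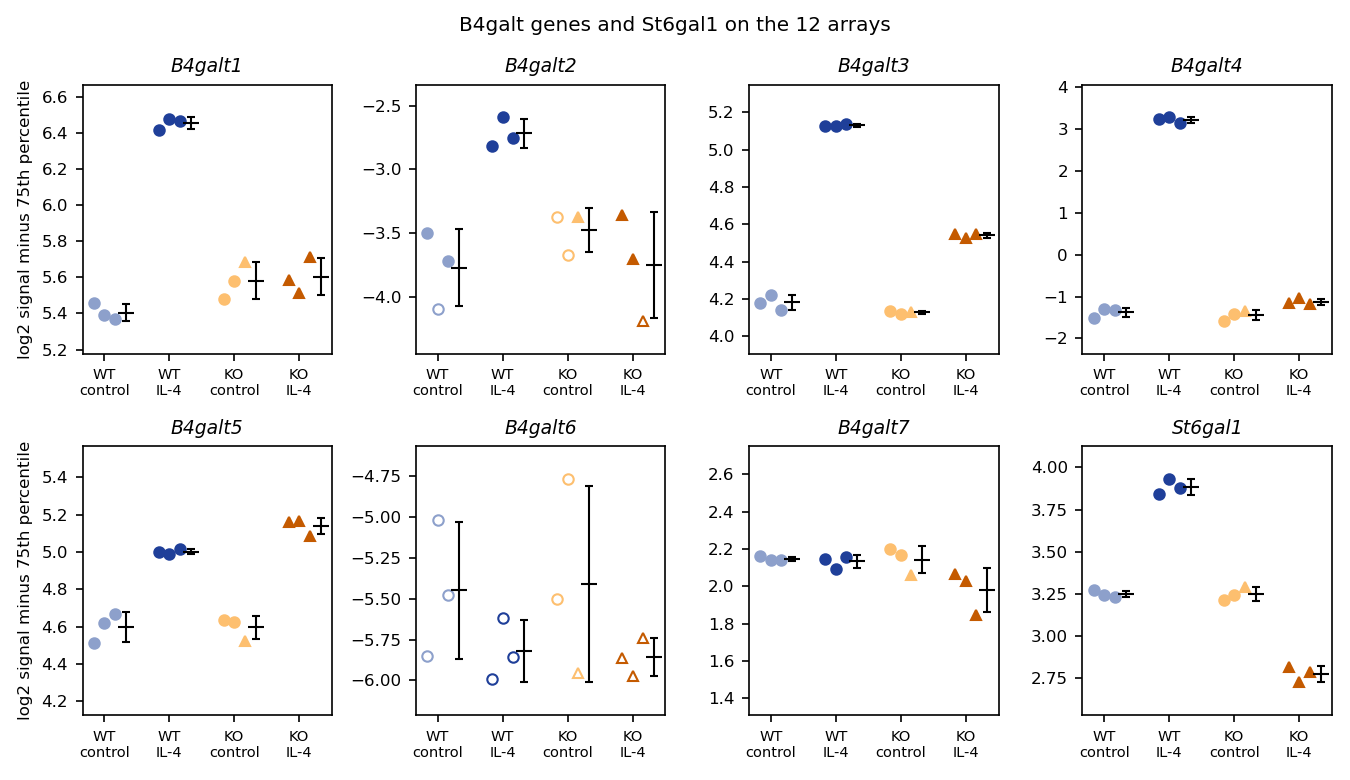
Scaled log2 signal (log2 intensity minus the array's 75th percentile) of the 8 genes on the 12 arrays, with the mean and SD of each group of 3 beside the points. Circles are arrays of slide 1, triangles arrays of slide 2, and open symbols are signals not well above background. Each panel has its own vertical range; B4galt4 lies between -1.58 and -1.04 on the 9 arrays other than wild-type IL-4 and between 3.15 and 3.28 there.

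Of the N-glycan enzymes, B4galt1, which supplies most galactose on N-glycans and also forms lactose synthase with alpha-lactalbumin, was higher with IL-4 in wild-type cells, and no rise was detected in the knockout. Its intensities were 13171, 13585 and 12939 in wild-type controls, 29065, 31746 and 30628 with IL-4, 13735, 14154 and 15785 in knockout controls, and 16337, 15258 and 16618 in knockout IL-4 arrays. The wild-type IL-4 arrays were the highest by a wide margin, and the knockout groups overlapped after scaling. The log2 difference was 1.05 ± 0.07 (SE) in wild type (2.07-fold) and 0.02 ± 0.07 in the knockout, where the 95% interval ran from -0.12 to 0.17 (adjusted p = 0.806). The response differed between genotypes by 1.03 ± 0.09 (limma interaction, adjusted p = 1.24e-05). With IL-4, B4galt1 was 1.80-fold lower in the knockout (adjusted p = 2.07e-06).

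B4galt3, a further N-glycan galactosyltransferase, responded in both genotypes, more in wild type. Intensities were 5438, 6055 and 5534 in wild-type controls and 11856, 12415 and 12182 with IL-4, against 5416, 5150 and 5364 in knockout controls and 7984, 7679 and 7398 with IL-4. The knockout IL-4 arrays stood between the controls and the wild-type IL-4 arrays, with no overlap. B4galt3 rose by 0.41 ± 0.04 or 1.33-fold in the knockout (limma, adjusted p = 2.41e-05; with slide as a block 0.41, adjusted p = 9.14e-04). Its wild-type difference was 0.95 ± 0.04 or 1.93-fold, and the responses differed by 0.54 ± 0.05 (adjusted p = 2.63e-05).

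B4galt2 gave a dim signal, with intensities from 17.4 to 59.1, and was well above background on 8 of the 12 arrays. It passed the filter through the wild-type IL-4 group, where all 3 arrays were above background at 48.3, 59.1 and 51.4. The wild-type controls read 26.5, 19.0 and 23.9, the knockout controls 29.7, 23.3 and 29.6, and the knockout IL-4 arrays 33.3, 25.7 and 17.4. Its difference was 1.05 ± 0.20 in wild type and -0.28 ± 0.20 in the knockout (adjusted p = 0.310), and the responses differed by 1.33 ± 0.29. Since the filter kept B4galt2 for its wild-type IL-4 signal, comparisons that use that group are given without a test. With normexp background correction, which adds an offset to dim signals, that last difference shrank to 0.37.

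Of the 2 detected galactosyltransferases outside N-glycan synthesis, B4galt5 was higher with IL-4 in both genotypes. This lactosylceramide synthase had intensities of 6849, 7966 and 7969 in wild-type controls and 10865, 11310 and 11191 with IL-4. In the knockout they were 7651, 7327 and 7056 without and 12209, 11959 and 10765 with IL-4. Both IL-4 groups lay above both control groups. B4galt5 rose by 0.54 ± 0.05 or 1.46-fold in the knockout (limma, adjusted p = 3.61e-05), and its wild-type difference was 0.40 ± 0.05 or 1.32-fold. The responses differed by -0.14 ± 0.08, with a 95% interval from -0.31 to 0.03 (adjusted p = 0.153), so a difference between the genotypes was not shown for this gene. On a second, dimmer probe the knockout difference was 0.24 ± 0.10, which did not pass (adjusted p over probes = 0.0761), and the interaction was 0.34 ± 0.14 (adjusted p over probes = 0.0759), of the opposite sign.

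B4galt7, the first galactosyltransferase of the proteoglycan linker, had intensities of 1342 to 1431 in wild-type controls, 1506 to 1546 with IL-4, 1279 to 1414 in knockout controls and 1139 to 1425 in knockout IL-4 arrays. After scaling, all groups except knockout IL-4 sat close to 2.14. The difference with IL-4 was -0.01 ± 0.06 in wild type and -0.16 ± 0.06 in the knockout, which missed the threshold (adjusted p = 0.0583). It passed, at values of -0.16 to -0.25, with quantile scaling, normexp, a trended variance or the authors' table, and at -0.20 and -0.21 when knockout control 3 or knockout IL-4 array 1 was left out. It was -0.08 with slide as a block (adjusted p = 0.482). B4galt6 read 4.95 to 10.9 in intensity over both probes and all arrays, and no level is given for it.

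St6gal1, the alpha-2,6-sialyltransferase, went in opposite directions in the 2 genotypes. Intensities were 2895, 3067 and 2939 in wild-type controls and 4876, 5435 and 5078 with IL-4. The knockout read 2847, 2803 and 3001 in controls and 2392, 2199 and 2178 with IL-4. The controls of both genotypes overlapped, all wild-type IL-4 arrays lay above them, and all knockout IL-4 arrays lay below.

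Scaled log2 means of St6gal1 were 3.25 ± 0.02 (SD, n = 3) in wild-type controls, 3.88 ± 0.05 with IL-4, 3.25 ± 0.04 in knockout controls and 2.77 ± 0.05 with IL-4. The wild-type difference was 0.64 ± 0.04 (SE), or 1.55-fold. In the knockout St6gal1 fell by 0.48 ± 0.04, which is 1.39-fold lower (limma, adjusted p = 2.86e-05). With slide as a block that fall was -0.52 (adjusted p = 5.55e-04). The responses differed by 1.11 ± 0.06 (adjusted p = 4.17e-07), and with IL-4 the knockout was 2.16-fold below wild type (adjusted p = 1.44e-08). A second St6gal1 probe, printed in 10 spots, gave 0.79 in wild type and -0.54 in the knockout (adjusted p over probes = 1.65e-04).

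**Figure D2:**
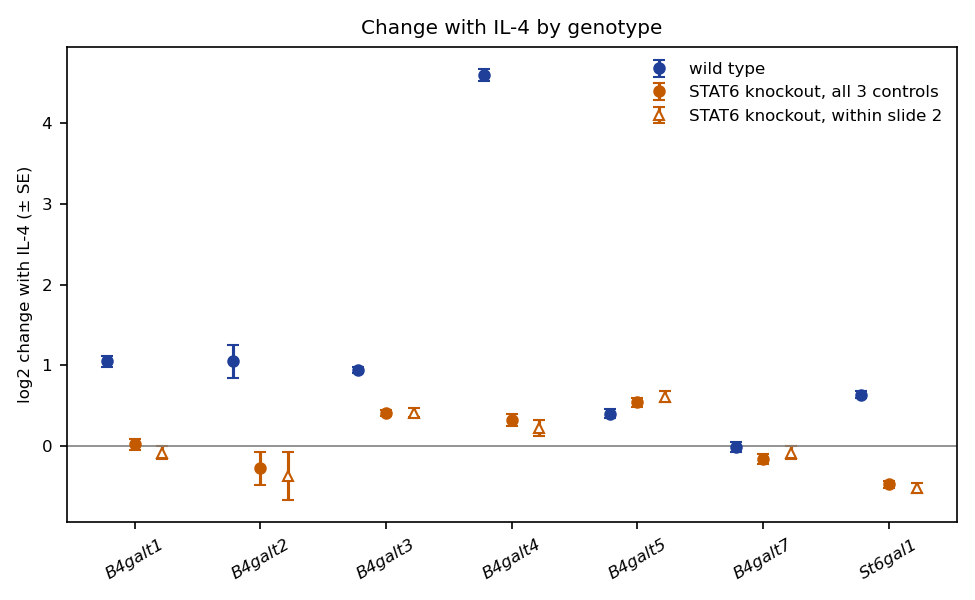
Log2 change with IL-4 (± SE from limma) for the 7 tested genes in wild type, in the STAT6 knockout against all 3 knockout controls, and in the knockout with slide as a block, which compares within slide 2. B4galt4 stands at 4.60 in wild type against 0.33 in the knockout, B4galt5 at 0.40 and 0.54, and St6gal1 at 0.64 and -0.48.

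Counted over the set, 6 of the 7 tested genes were higher with IL-4 in wild type at an adjusted p under 0.05 and 0 were lower, beside 57.1% of all 16497 genes called in either direction and 26.4% called higher. Of these genes, 3 changed at least 2-fold, beside 12.7% of all genes. B4galt2 entered the test through its wild-type IL-4 arrays, which favours a difference in this contrast. This contrast chose the set, so nothing is read from these counts. The median log2 difference was 0.95, and -0.04 over all genes.

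In the knockout 3 of 7 rose (B4galt3, B4galt4, B4galt5) and 1 fell (St6gal1), against 42.2% of all genes called (27.5% rose, 14.7% fell). None of the set (0 of 7) was called with a 2-fold change, which 3.52% of all genes were. The share called in the set is thus near that of all genes. The median was 0.02, beside 0.05 over all genes. The arrays of both knockout groups did not overlap for 4 of the 7 genes, which holds for 46.5% of all genes.

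Without IL-4, 0 of the 6 genes other than B4galt4 passed (11.7% of all genes did), and 1 of the 6 had an unadjusted p under 0.05 in limma, the only tool run. That gene was B4galt1, at 0.18 ± 0.07 higher in the knockout (adjusted p = 0.0993), which passed when knockout control 1 was left out (0.23, adjusted p = 0.0407). With IL-4, leaving out B4galt2 as well, 3 of 5 genes were lower in the knockout (B4galt1, B4galt3 and St6gal1) and 0 higher, against 51.1% of all genes called (21.3% lower). With slide as a block the differences of these 3 genes were -1.01, -0.59 and -1.18. B4galt5 differed by 0.14 ± 0.05 (adjusted p = 0.0538) and B4galt7 by -0.15 ± 0.06 (adjusted p = 0.0603), and neither passed. With quantile scaling both did (adjusted p = 0.0332 and 0.0344), and with slide as a block the values were 0.24 (adjusted p = 0.0661) and -0.03 (adjusted p = 0.853).

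The wild-type response exceeded the knockout response for 3 of the same 5 genes (B4galt1, B4galt3 and St6gal1) and was lower for 0. Over all genes 44.8% passed this interaction test, 16.4% with the higher response in wild type. For B4galt4 the interaction was 4.28 ± 0.11, given as a description. It was 3.67 with normexp and 3.60 from the authors' values.

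Over the 12 arrays the scaled level of B4galt4 correlated with that of B4galt1 at a Pearson r of 0.97, with B4galt3 at 0.94, with St6gal1 at 0.84 and with B4galt2 at 0.83. It correlated with B4galt5 at 0.45 and with B4galt7 at 0.16. These values describe 4 groups of 3 arrays that share their scaling, and much of each rests on the wild-type IL-4 arrays standing apart.

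Among 1429 genes that were well above background on all 12 arrays and spanned at least 1 log2 unit between group means, the 5 with the pattern most like B4galt4 had Pearson r from 0.997 to 0.999. They were Socs2, a suppressor of cytokine signalling, St7, Net1, Rnf19b, a RING finger ubiquitin ligase, and Hemk1. With IL-4 in wild type these differed by 5.96, 2.99, 1.23, 2.68 and 2.86 (log2), and in the knockout by 0.37, 0.22, 0.06, 0.33 and 0.11. The 5 genes most like St6gal1 had r from 0.981 to 0.985. They were Slc35e4, Dexi, Xbp1, the transcription factor of the secretory programme, Cnr2, a cannabinoid receptor, and H2-DMa, a peptide-loading subunit of MHC class II. Their wild-type differences were 1.02, 0.79, 0.87, 0.59 and 0.91, and in the knockout -0.72, -0.39, -0.90, -0.56 and -0.41.

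**Figure D3:**
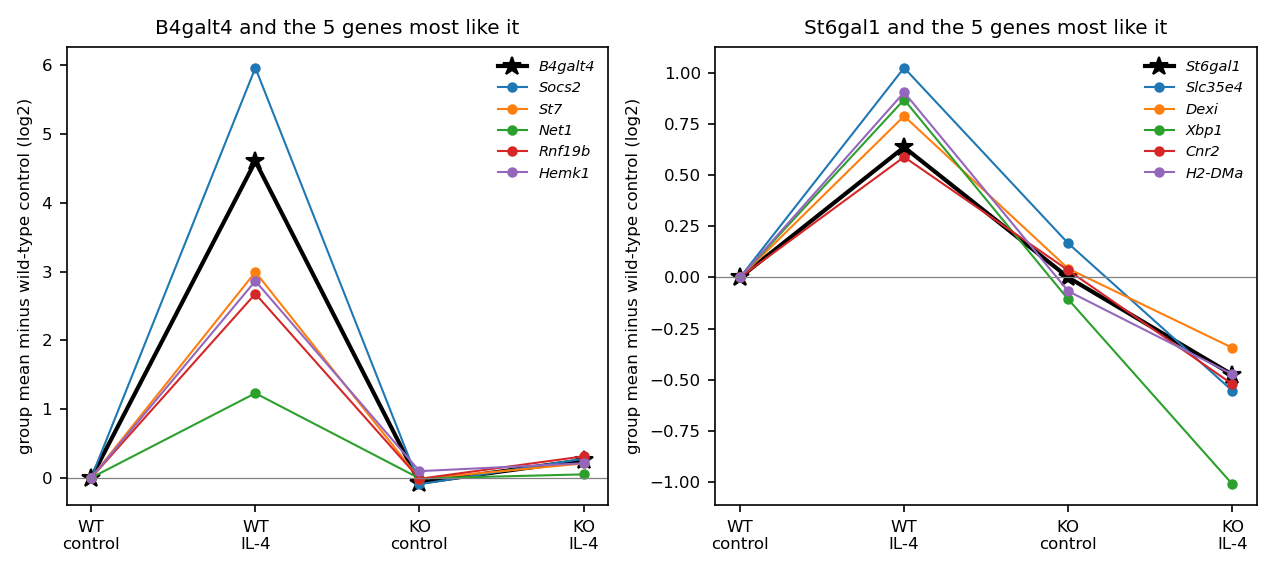
Group means relative to the wild-type control (scaled log2) for B4galt4 and the 5 genes most like it, left, and for St6gal1 and the 5 genes most like it, right; means are of 3 arrays. In the left panel wild-type IL-4 is the highest point of each line, at 1.23 to 5.96; in the right panel the lines lie above 0 there and below 0 in knockout IL-4.

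Since Xbp1 is also a plasma cell marker, the level of that list stands beside St6gal1. Of 7 plasma cell markers 6 were tested, and their summed scaled log2 level was 7.87 to 7.95 in wild-type controls, 7.87 to 7.90 with IL-4, 7.70 to 8.03 in knockout controls and 6.80 to 6.84 in knockout IL-4 arrays. The summed level was lowest in the group in which St6gal1 was lowest, and it follows the brightest members, Xbp1 among them, which is named here for its likeness to St6gal1. The members did not move together. Prdm1, which drives plasma cell differentiation, Igj, the joining chain, and Derl3, of the endoplasmic reticulum, fell with IL-4 in both genotypes and were lowest in wild-type IL-4 arrays (-2.81, -5.82 and -3.07 in wild type, -1.69, -3.44 and -1.66 in the knockout). Irf4 rose by 0.29 and 0.23, and Sdc1 by 0.76 in wild type, with 0.10 in the knockout (adjusted p = 0.646). Xbp1 was 0.87 higher in wild type and 0.90 lower in the knockout.

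Macrophage markers (4 of 6 tested) summed to 4.82 to 4.90 in wild-type controls, 4.25 to 4.29 with IL-4, 4.75 to 4.88 in knockout controls and 5.15 to 5.27 in knockout IL-4 arrays. That sum follows its brightest marker, Emr1 (-0.92 in wild type, 0.55 in the knockout), while Cd14 differed by 0.38 and -0.31, Itgam by 0.17 and -0.24, and Csf1r by -0.12 and -0.25. T cell markers (5 of 7 tested) summed to at most 5.35 on any array, and dendritic cell markers (all 4 tested) to 6.79 to 7.20. The T cell sum follows Lck, with group means of 4.94 to 5.12, while the other tested markers had means of -3.01 to 0.32. The brightest dendritic cell marker, Siglech, differed with IL-4 by 0.31 in wild type and -0.12 in the knockout. Itgax, a dim marker, differed by 2.57 and -0.48, Flt3 by -1.65 and 0.09, and Zbtb46 by 1.35 and 0.98. Only 1 of 4 NK cell markers and 0 of 3 each for neutrophils and erythroid cells were well above background on all arrays of any group. In bulk RNA, fewer cells of a type and less RNA per cell cannot be told apart, and the part of these markers in the St6gal1 result was not tested.

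Around the set stand 84 other genes of the same pathways in 7 lists, of which 71 were tested. With IL-4 in wild type 27 of the 71 were higher and 25 lower (73.2%, beside 57.1% of all genes), and 12 changed at least 2-fold (16.9%, beside 12.7% of all genes). In the knockout 15 rose and 21 fell (50.7%, beside 42.2% of all genes), and 5 changed at least 2-fold (7.04%, beside 3.52%). The median log2 difference was 0.07 in wild type and -0.03 in the knockout. With median scaling, which moved the median knockout difference of all genes from 0.05 to 0.20, the knockout falls of Man1a, Galt, Gne, Cd72, Siglecg, St3gal6 and Xylt2 no longer passed (-0.26 to -0.044). Under the same scaling the knockout differences of Mgat5 (0.58), Pgm1 (0.44), St3gal1 (0.25) and St3gal4 (0.41) passed, and the wild-type differences of Mgat4a (0.22), Lgals9 (-0.20), B3gnt2 (-0.22), Extl3 (0.18) and Gne (-0.13) did not. The values below are log2 differences with IL-4, and adjusted p-values are those of the knockout response or of the interaction in limma.

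For N-glycan branching and core fucose, 3 of 10 tested genes were higher and 3 lower in wild type, and 2 rose and 2 fell in the knockout. Fut8, which adds the core fucose, was 0.58 lower in wild type and rose by 0.55 in the knockout (adjusted p = 4.67e-04; interaction -1.13, adjusted p = 2.93e-05). Man1a, a Golgi mannosidase, differed by -0.55 and -0.38 (adjusted p = 0.00122), and Mgat4a, a branching enzyme, by 0.20 and 0.34 (adjusted p = 0.00103). Mgat5, which starts the branch favoured for poly-N-acetyllactosamine, was not well above background on any wild-type IL-4 array. On the scaled processed signals it was at least 1.38-fold lower there than in wild-type controls. Over the alternatives the wild-type difference of Mgat5 was as small as -0.23, and in the authors' table it was -0.26 and did not pass. In the knockout it differed by 0.43 (adjusted p = 0.0868).

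For the supply of UDP-galactose, the donor of all 7 galactosyltransferases, 4 of 9 genes were higher and 1 lower in wild type, and 1 rose and 4 fell in the knockout. Slc35a2, the Golgi carrier of UDP-galactose, differed by 0.40 in wild type and -0.06 in the knockout (interaction 0.46, adjusted p = 0.00306). Ugp2, which makes UDP-glucose, was 0.37 and 0.45 higher (adjusted p in the knockout = 2.78e-05). Galk1, the galactokinase, differed by -0.14 in wild type and fell by 0.57 in the knockout (adjusted p = 0.00143). Without IL-4 it was 0.62 higher in the knockout than in wild type (limma, adjusted p = 0.0083, and 0.0334 with slide as a block). Its scaled log2 means were 4.45 and 4.31 in wild type without and with IL-4, and 5.07 and 4.49 in the knockout. Galt, the uridylyltransferase, differed by -0.26 and -0.29 (adjusted p = 0.00858), but by 0.04 and -0.01 as the mean of its probes. Pgm1 and Pgm2, phosphoglucomutases, differed by 0.47 and -0.72 in wild type and by 0.28 (adjusted p = 0.0536) and -1.09 (adjusted p = 0.0245) in the knockout. The Pgm2 call was lost when knockout control 2 or 3 or knockout IL-4 array 1 or 2 was left out, with values from -0.83 to -1.01. Without IL-4, Pgm2 was 1.24 higher in the knockout than in wild type (limma, adjusted p = 0.0421). With slide as a block that genotype difference was 1.06 and did not pass (adjusted p = 0.144).

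Of 8 glycolipid genes, the pathway that starts from B4galt5, 3 were higher and 1 lower in wild type, and 1 rose and 2 fell in the knockout. St3gal5, which makes the ganglioside GM3 from lactosylceramide, was 0.35 and 0.62 higher (adjusted p in the knockout = 8.08e-06). Glb1, the lysosomal beta-galactosidase, differed by 1.18 in wild type and -0.03 in the knockout (interaction 1.21, adjusted p = 6.49e-07). B3galt4 differed by -0.36 and -0.46 (adjusted p = 1.52e-04).

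In the list for poly-N-acetyllactosamine and sulfation, 2 of 10 tested genes were higher and 5 lower in wild type. In the knockout 1 rose and 5 fell. B3gnt7, the N-acetylglucosaminyltransferase of keratan sulfate, had intensities of 25.0, 20.0 and 22.5 in wild-type controls and 254, 545 and 236 with IL-4. Knockout controls read 43.0, 56.7 and 20.7, and knockout IL-4 arrays 24.6, 15.7 and 18.2. The wild-type IL-4 arrays were the only group with all 3 arrays well above background. On the scaled processed signals, wild-type IL-4 arrays were at least 12.1-fold higher in B3gnt7 than wild-type controls. With IL-4 the knockout was at least 14.0-fold below wild type on the same scale. Over the alternatives the wild-type difference was as small as 2.00 (log2). The gene passed the filter through its wild-type IL-4 arrays, so these differences are given without a test. Such bounds set the bright group against the lowest signal that is well above background on each array of the dim group.

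On the knockout IL-4 arrays B3gnt7 was not well above background, and among the knockout controls it was so on 2 of 3 arrays. With IL-4 in the knockout it was called lower, at -1.07 (log2), and no bound is given. That call was marginal (adjusted p = 0.0497) and was lost under 18 of 22 alternatives, among them slide as a block (-0.22, adjusted p = 0.721). Chst1, the keratan sulfate sulfotransferase, fell in the knockout by 1.10 (adjusted p = 8.70e-05) and was 1.73 lower in wild type. Gcnt1, the core 2 branching enzyme, differed by -1.55 in wild type and -0.04 in the knockout (interaction -1.51, adjusted p = 2.44e-06). Fut7, which makes sialyl Lewis x, differed by -0.34 in wild type and fell by 1.24 in the knockout (adjusted p = 1.02e-04). B3gnt2, the main poly-N-acetyllactosamine extender, differed by -0.24 and 0.40 (adjusted p = 3.11e-04).

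Of 11 genes of the proteoglycan linker and chain start, the pathway of B4galt7, 5 were higher and 5 lower in wild type, and 5 rose and 1 fell in the knockout. Ext1, a heparan sulfate polymerase, was 1.43 lower in wild type and rose by 0.47 in the knockout (adjusted p = 2.31e-04; interaction -1.89). Xylt2, which starts the linker, differed by 0.54 and -0.20 (adjusted p = 0.00401), and B3galt6 by -0.55 and 0.04. Extl3 differed by 0.16 and 0.23 (adjusted p = 0.00269), and its knockout value was 0.10 with quantile scaling, 0.11 with normexp and 0.11 in the authors' table, none of which passed (adjusted p = 0.0621, 0.0533 and 0.233). Csgalnact1, which starts chondroitin chains, was not well above background on any wild-type IL-4 array. On the scaled processed signals it was at least 2.40-fold lower there than in wild-type controls. Over the alternatives the wild-type difference of Csgalnact1 was as small as -0.80.

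Among 15 genes of sialic acid transfer, removal and supply, which share the substrate of St6gal1, 6 were higher and 6 lower in wild type, and 4 rose and 3 fell in the knockout. St3gal3, an alpha-2,3-sialyltransferase, ran opposite to St6gal1, at 0.48 lower in wild type and 0.70 higher in the knockout (adjusted p = 1.05e-05; interaction -1.18, adjusted p = 1.41e-06). St3gal1, which caps O-glycans, differed by -1.06 in wild type and 0.09 in the knockout (interaction -1.16, adjusted p = 1.73e-06). St3gal4 differed by 1.61 and 0.26 (interaction 1.35, adjusted p = 2.89e-04), from a wild-type control level that was well above background on 1 of 3 arrays. Over the alternatives its wild-type difference was as small as 0.60. St3gal6 differed by -0.01 and -0.36 (adjusted p = 3.04e-04), and St6galnac1 by 1.15 and -0.28. Gne, the entry enzyme of sialic acid synthesis, differed by -0.15 and -0.20 (adjusted p = 0.0112). The knockout call was lost also without a filter (adjusted p = 0.0612) and with only the compared arrays (adjusted p = 0.0704).

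The list of lectins that read galactose or sialic acid also holds Cd72, for which such binding is not claimed here. All 8 tested genes of this list passed in wild type, 4 higher and 4 lower, and in the knockout 1 rose and 4 fell. Lgals3, which encodes the galactose-binding galectin-3, had intensities of 400, 387 and 365 in wild-type controls and 2542, 2800 and 2749 with IL-4, against 383, 435 and 552 in knockout controls and 278, 269 and 280 with IL-4. Like St6gal1 it lay above both controls in wild-type IL-4 arrays and below them in knockout IL-4 arrays. Its differences were 2.66 in wild type and -0.83 in the knockout (adjusted p = 2.82e-04; interaction 3.49, adjusted p = 8.86e-08). Lgals1, galectin-1, differed by 0.50 and -0.41 (adjusted p = 1.97e-04), and Lgals9, galectin-9, by -0.22 and 0.64 (adjusted p = 1.10e-05). Siglecg, a B cell inhibitory receptor for sialic acid, differed by -1.65 and -0.41 (adjusted p = 6.75e-04), and the B cell receptor regulator Cd72 by -0.90 and -0.21 (adjusted p = 0.00684, and 0.0664 with slide as a block).

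**Figure D4:**
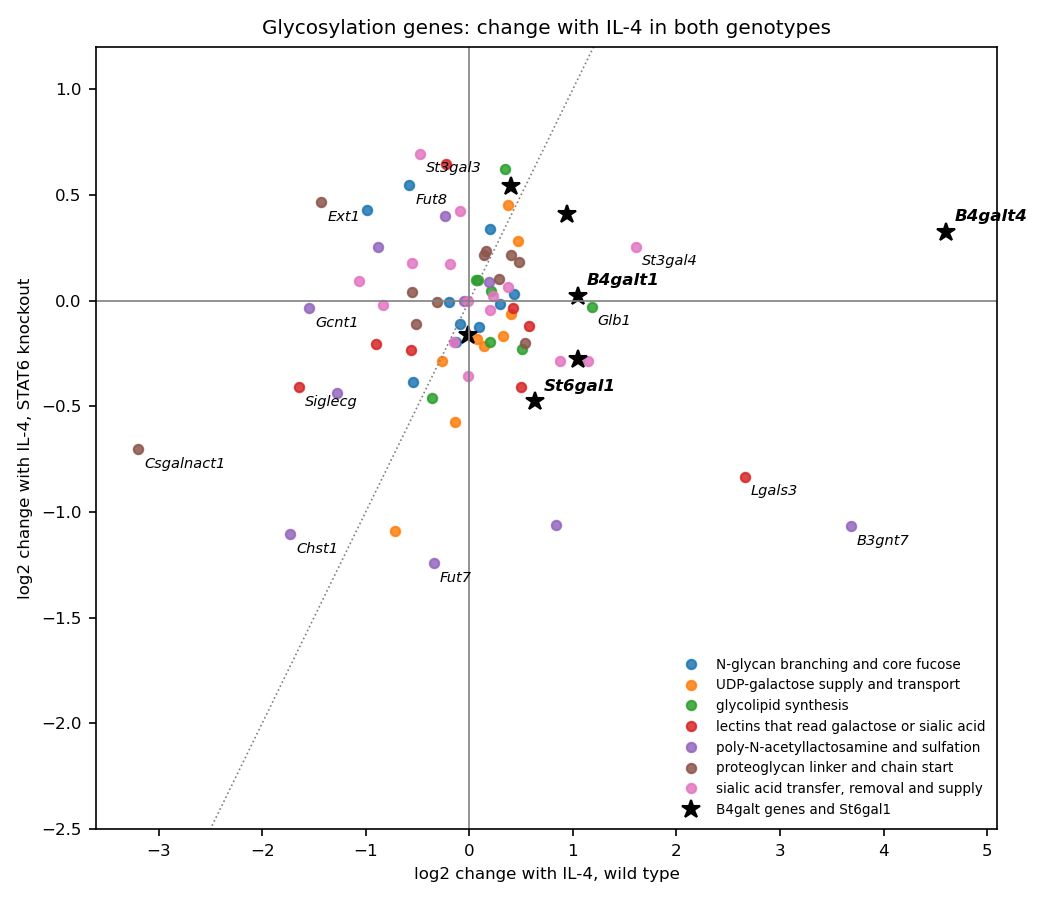
Log2 change with IL-4 in wild type (horizontal) and in the STAT6 knockout (vertical) for the 71 tested pathway genes, coloured by list, and for the 7 tested genes of the set as stars; each point is a difference of means of 3 arrays, and the dotted line marks equal changes. B4galt4 lies farthest right at 4.60, and St6gal1, at 0.64 and -0.48, lies to the lower right with Lgals3 at 2.66 and -0.83.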

How the data were processed

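The authors deposited scanner output of Agilent Feature Extraction (version 10.7.3.1, per the file headers). Per the file headers, its processed signal is an intensity per spot with background subtracted and no scaling between arrays. Probe positions are on mm9, per the file headers. The authors also deposited log2 values per gene name, which the file's opening line describes as background subtracted and quantile normalised. These served as an alternative.

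Processed signals were put on the log2 scale, less the array's 75th percentile, which was an intensity of 296 to 356 over non-control spots. Spots with outlier flags were left out (122 to 196 per array) and spots of a probe averaged, which gave 55681 probes. Kept were 22940 probes with 2 or more values in every group that were well above background throughout 1 or more groups. The brightest kept probe by mean represented each gene, and other probes are given where they disagree or add to the result. Signals of dim probes are partly surrogates, which makes their folds less certain.

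Group means were fitted with limma 3.58.1 (lmFit, contrasts.fit, eBayes) in R 4.3.3 on 16497 genes and all 12 arrays. Files were read with jsonlite 2.0.0 and data.table (version 1.17.8). P-values were Benjamini-Hochberg adjusted over all genes of a contrast, and "rose", "fell", "higher" and "lower" in counts mean an adjusted p under 0.05. The script was tested on simulated data. Alternatives changed the scaling, background correction, filter, probe choice, variance model, arrays fitted, slide block and replicate block, left out each array, or used the authors' values. Figures were made in Python 3.11.15 (pandas 2.3.3, matplotlib 3.10.9).

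Members and gene lists were chosen with earlier results of these data known. Named are the 8 members, Stat6, the 5 genes most correlated with B4galt4 and with St6gal1 among 1429 candidates, and, per list, up to 3 genes with the smallest adjusted p in the knockout response and up to 3 with the largest wild-type change. A gene that this rule names is not reported here. Cell type markers were named as counts, ranges or defining genes. Taken over all groups, same-numbered arrays did not deviate together (median r of -0.03 over 18 pairs, 2 of them over 0.1), so numbers were not used as pairs. Both pairs over 0.1 joined a knockout control with a knockout IL-4 array, at 0.32 for number 1 and 0.39 for number 3. Number 2 stood at -0.02. Knockout control 1 also reached 0.31 with knockout IL-4 array 2, and 7 of 36 differently numbered pairs were over 0.1. No sequence or position is given for B4galt6.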

Additional observations from a re-analysis of the deposited data

Results flagged for a closer look

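The response to IL-4 differed between wild type and STAT6 knockout by the interaction test of limma for 3 genes that were well above background on all arrays. The wild-type response exceeded the knockout response by 1.11 for St6gal1, 1.03 for B4galt1 and 0.54 for B4galt3 (log2). These passed at an adjusted p under 0.05, which 44.8% of all genes did, and with slide as a block the values were 1.16, 1.13 and 0.54, each passing. The same difference was 1.33 for B4galt2 and 0.37 with normexp background correction. B4galt2 was kept by the filter for its wild-type IL-4 signal, which favours that difference, so nothing is read from its test.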

How the results depend on the processing

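For the set, the counts of called genes stayed within 1.5 times in 4 of 5 contrasts under all alternatives. In knockout against wild type without IL-4 the count was 0 and became 1 when knockout control 1 was left out (range over single arrays left out 0 to 1). For the pathway lists the counts stayed within 1.5 times in 4 contrasts, and in that same one the count of 10 became 25 with median scaling, 1 without a filter or with slide as a block, 5 with only the compared arrays or with the authors' table, and 1 to 19 with single arrays left out. Median scaling moved the median of all genes in that contrast from -0.04 to -0.22, in the knockout response from 0.05 to 0.20 and in the interaction from -0.10 to -0.23. Of single values of the set, 724 kept direction and side of the threshold, 17 gained a call, 1 lost it, 32 turned sign and 26 untested ones moved; for the other named pathway genes 1502 kept both, 25 gained, 60 lost and 15 turned. No value of the set that turned sign was called on either side. For the knockout response of B4galt1 they were -0.11 (quantile), -0.073 (normexp), -0.071 (authors' table) and -0.081 (slide block). For knockout against wild type without IL-4 they were -0.0066 and -0.18 for B4galt1 and St6gal1 with median scaling and -0.022 for St6gal1 with slide as a block; for B4galt3 0.018, 0.032, 0.070 and 0.063 with quantile, normexp, mean of probes and authors' table; for B4galt5 0.061, 0.061, 0.15, 0.032 and 0.043, and for B4galt7 0.044, 0.050, 0.0030, 0.036 and 0.071, with those settings and slide as a block before the last. The B4galt5 interaction was 0.10 with the mean of probes. With single arrays left out these ran from -0.032 to 0.075 (B4galt1, knockout response), -0.048 to 0.032 (B4galt5), -0.034 to 0.036 (B4galt7) and -0.022 to 0.019 (St6gal1, all without IL-4). Turned values of other genes, with no call, were in the knockout response 0.12 for Gcnt1 and Glb1 and 0.091 for Slc35a2 (median scaling), -0.035, -0.038 and -0.045 for St3gal1 (quantile, normexp, authors' table), and in wild type 0.0067 for St3gal6 (median scaling); the called -0.26 of Galt in wild type became 0.036 as the mean of probes. Leaving out single arrays gave -0.063 to 0.21 for B3galt6, -0.13 to 0.016 for Gcnt1, -0.060 to 0.0093 for Glb1 and -0.57 to 0.012 for St6galnac1 in the knockout. The replicate block changed no call of the set (B4galt4 knockout response 0.33, adjusted p = 0.00592, replicate block); the wild-type call of Gne was lost under it. Causes were not tested. Signal over background limits B4galt2, B4galt6, B3gnt7, Mgat5, Csgalnact1 and St3gal4.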
